A study of Caenorhabditis elegans with 24 samples.

Results

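The heat response of ribosome footprints was followed in wild-type Caenorhabditis elegans. Of the 24 libraries of the series, 6 belong to this comparison: 3 footprint libraries from adults held at 27 °C and 3 from adults held at 20 °C. Both groups were the N2 wild type, whole synchronised adults raised on plates at 20 °C and then shaken for 4 h in liquid medium at one of the temperatures, with no other agent until cycloheximide was added at harvest. The same lysates gave 6 libraries of rRNA-depleted input RNA, and the strain noNSUN, a mutant of nsun-1, nsun-2, nsun-4 and nsun-5, gave 6 further footprint libraries at the same temperatures, which are used here for comparison. Whole animals were lysed, so a change in a tissue's amount of RNA and a change in its expression cannot be told apart. The labels number the replicates without saying whether each was a separate culture (the methods call them biological replicates), so the p-values measure the spread between these libraries.

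Ribosome profiling reads out the short stretches of mRNA that ribosomes cover, called footprints, after the uncovered mRNA has been digested away. The number of footprints on a gene reflects both how much mRNA is present and how densely it is occupied. Heat unfolds proteins, and cells answer through the transcription factor HSF-1, which binds heat-shock elements (inverted repeats of the unit nGAAn) and induces chaperones of the small heat-shock protein, HSP70 and HSP90 families. A parallel response guards the endoplasmic reticulum (ER), where the transcription factor XBP-1 induces the HSP70 protein BiP.

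The footprint libraries were shallow. They held 101435, 34100 and 22761 in-frame footprints at 27 °C, against 49654, 140854 and 65107 at 20 °C, and 11649 of the 20447 genes in the files had at least 1 footprint in one of the 6. A count of 3 footprints in a library corresponded to between 29.6 and 132 CPM (counts scaled to a common library size) at 27 °C, and at 20 °C to between 21.3 and 60.4 CPM, so the absence of a gene in a library sets only a loose limit (counting error alone, since reads carried no molecular identifiers). The Spearman correlation between replicates, across 2284 genes, was 0.671 to 0.730 at 27 °C and 0.727 to 0.831 at 20 °C. Replicate 3 at 27 °C, the library with the fewest footprints, stood at 31.3 on the first principal component (37.6% of the variance), where the other 5 lay between -13.3 and 1.35. A gene entered the test if it reached about 163 CPM in at least 3 of the 12 footprint libraries of both strains, which left 1624 genes. Differences are given as log2 fold changes of 27 °C over 20 °C with their standard error (SE), and a gene is called at a Benjamini-Hochberg adjusted p under 0.05 in edgeR's quasi-likelihood test.

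At 27 °C, footprints rose on inducible chaperone genes of the cytosol and on hsp-4 and xbp-1 of the ER stress response, and fell on genes of propionate breakdown, a pud gene and a collagen. Of the 1624 genes, 21 were called (1.29%), 15 of them higher (0.924%) and 6 lower (0.369%), and 169 had an unadjusted p under 0.05. The 15 higher genes were hsp-70, the 6 hsp-16 genes, F44E5.4, F44E5.5, anmt-3, Y94H6A.10, xbp-1, hip-1, mnk-1 and hsp-4. The 6 lower genes were hphd-1, acdh-1, pud-2.2, col-101, acp-6 and tsn-1. In all 21 the 3 libraries at 27 °C lay on one side of the 3 at 20 °C, as they did in 14% of all genes tested (6.83% higher and 7.20% lower). The median log2 fold change over all genes was 0.00, with a median SE of 0.38, and 92 genes had an estimate of more than 1 in either direction. Of the 15 higher genes, 12 had no 20 °C library at the filter's limit, which applies to CPM without TMM scaling (by the scaled CPM printed here, xbp-1 in 20 °C replicate 1 lies just above it). They entered the test through other libraries, so their number is not read as a share of anything. With 1 wild-type library left out, between 13 (without 20 °C replicate 2 or without 27 °C replicate 2) and 31 genes (without 20 °C replicate 1) were called.

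**Figure D1:**
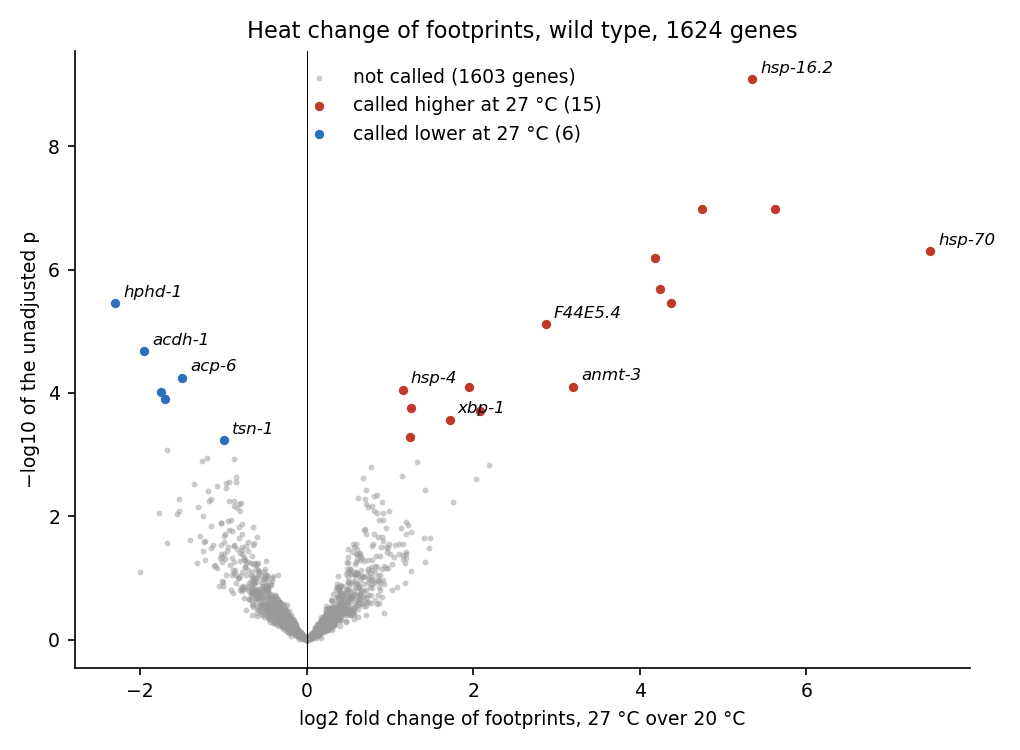
Each point is a gene tested, placed by its log2 fold change of footprints at 27 °C over 20 °C (horizontal axis) and by −log10 of the unadjusted p (vertical axis). The 15 called higher genes reach further from 0 than the 6 called lower genes, with hsp-70 at 7.48 and hphd-1 at -2.30.

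Among the higher genes the small heat-shock proteins of the hsp-16 family, chaperones that hold unfolding proteins and are known as classic heat-inducible genes of the worm, formed the largest group. The family lies in divergent gene pairs on chromosome V (WBcel235). The genes hsp-16.2 (chrV:1804334-1804957, minus strand) and hsp-16.41 (chrV:1805178-1805875, plus strand) form one pair, and hsp-16.1 with hsp-16.48 forms another that is present in 2 copies. The copies have the same coding sequence, whereas hsp-16.2 differs from hsp-16.1 at 41 of 435 bases, and the 60 bases that follow the 10 codons left out of counting are shown to make that plain (capitals mark bases of hsp-16.2 that differ from hsp-16.1).
hsp-16.1 (WBGene00002015): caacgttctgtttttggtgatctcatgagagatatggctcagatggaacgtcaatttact
hsp-16.1 (WBGene00002017): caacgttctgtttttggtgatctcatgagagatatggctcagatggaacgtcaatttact
hsp-16.2 (WBGene00002016): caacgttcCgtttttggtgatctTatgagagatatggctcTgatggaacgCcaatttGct
A footprint from hsp-16.1 fits both copies, so the split of footprints between copies is uncertain, and the same holds for hsp-16.48.

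The promoters of the called genes were read for heat-shock-element pairs, meaning TTCNNGAA or GAANNTTC on either strand, with neighbouring matches allowed to overlap, in the window of 250 bases before to 50 bases after the annotated gene start. Of the 15 higher genes 14 (93.3%) held at least 1 match and 11 (73.3%) at least 2. The hsp-16, hsp-70 and F44E5 genes held at least 2 in 9 of 9, whereas of the other 6 higher genes 5 (83.3%) held a match and 2 (33.3%) at least 2. Among the 6 lower genes 3 (50%) held a match and 1 held at least 2. For comparison, 36.2% of the 1622 tested genes with a window held a match and 9.62% held at least 2, and 32.4% of all genes in the files held one. Windows of divergent pairs overlap, so the hsp-16 genes and the F44E5 genes do not count as separate promoters. A match is a description of letters and not a binding site. The 250 bases before the start are shown for hsp-16.2, for the HSP70 gene F44E5.4 and for the ER chaperone hsp-4, which stand for the 3 main groups of higher genes (genome sequence from RefSeq, WBcel235, minus strand in each case, capitals mark the matches).
hsp-16.2, chrV:1804958-1805207: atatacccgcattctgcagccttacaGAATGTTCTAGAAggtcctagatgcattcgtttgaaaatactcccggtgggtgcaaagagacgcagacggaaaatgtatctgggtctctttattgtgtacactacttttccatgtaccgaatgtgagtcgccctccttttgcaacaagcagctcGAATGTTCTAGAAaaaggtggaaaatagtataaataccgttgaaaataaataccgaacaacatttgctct
F44E5.4, chrII:11759312-11759561: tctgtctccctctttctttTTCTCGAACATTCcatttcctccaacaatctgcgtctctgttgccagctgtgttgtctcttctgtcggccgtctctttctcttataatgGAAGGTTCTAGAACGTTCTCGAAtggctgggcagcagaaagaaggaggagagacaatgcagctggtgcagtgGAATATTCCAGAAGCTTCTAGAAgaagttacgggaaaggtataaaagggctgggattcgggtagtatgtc
hsp-4, chrII:7352646-7352895: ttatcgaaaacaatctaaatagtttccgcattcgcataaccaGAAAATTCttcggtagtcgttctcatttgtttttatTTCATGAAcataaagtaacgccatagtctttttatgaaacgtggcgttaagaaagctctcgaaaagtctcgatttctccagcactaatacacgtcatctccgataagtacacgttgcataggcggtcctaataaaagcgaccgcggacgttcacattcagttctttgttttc
The hsp-16.2 stretch holds 4 matches in 2 runs, F44E5.4 holds 10 in 3 runs, and hsp-4 holds 2 that stand apart from each other.

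Summed over the family, the hsp-16 genes held 199, 46 and 44 footprints in the libraries at 27 °C and 3, 11 and 1 in those at 20 °C. As a share of all footprints this was 0.196%, 0.135% and 0.193% at 27 °C, against 0.00604%, 0.00781% and 0.00154% at 20 °C. The groups were far apart in every library, and the ratio of the pooled shares was 31.1 (95% exact counting interval 18.6 to 56.3). All 6 genes were called higher, with log2 fold changes of 4.19 to 5.63 and a median of 4.56, beside 0.00 for all genes.

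The gene with the most footprints of the family was hsp-16.2, with 65, 12 and 14 at 27 °C and 2, 0 and 1 at 20 °C. Scaled by library it had 636, 350 and 620 CPM at 27 °C, against 41, 0 and 15.3 CPM at 20 °C, and the pooled ratio was 49.0 (16.24 to 242). On the log2 scale it was higher by 5.35 (SE 0.58), with the lowest adjusted p of all genes (1.3e-06, edgeR). Its neighbour hsp-16.41 had 35, 4 and 5 footprints at 27 °C and 0, 1 and 0 at 20 °C, a pooled ratio of 71.1 whose interval of 12.1 to 2869 shows how little a single footprint at 20 °C fixes. The summed copies of hsp-16.1 had 54, 10 and 15 footprints at 27 °C and 1, 5 and 0 at 20 °C, a ratio of 21.3 (9.35 to 59.7). For the summed copies of hsp-16.48 the counts were 45, 20 and 10 at 27 °C and 0, 5 and 0 at 20 °C, a ratio of 24.2 (9.93 to 76.8). The 20 °C footprints of the hsp-16.48 copies all came from replicate 2, which is the library with the most footprints. Without that library the family's median log2 fold change was 7.53, a fitted value that then rests on genes at or near 0 and is no measure of size.

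No rise of that size was seen in the footprints of the other small heat-shock proteins, most of which could not be tested. Of 12 such genes in the files 2 could be tested, with log2 fold changes of -0.11 and 0.61 and no call. Their share of footprints was 0.187%, 0.293% and 0.303% at 27 °C and 0.155%, 0.161% and 0.206% at 20 °C, and the groups overlapped. The gene hsp-17 was below the filter, with 117, 29.2 and 44.3 footprint CPM at 27 °C, against 41, 14.5 and 0 CPM at 20 °C. In the input RNA of the same lysates, which is far deeper, hsp-17 was higher at 27 °C by 1.95 on the log2 scale (adjusted p = 0.0025, edgeR). It was named after its values were seen.

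**Figure D2:**
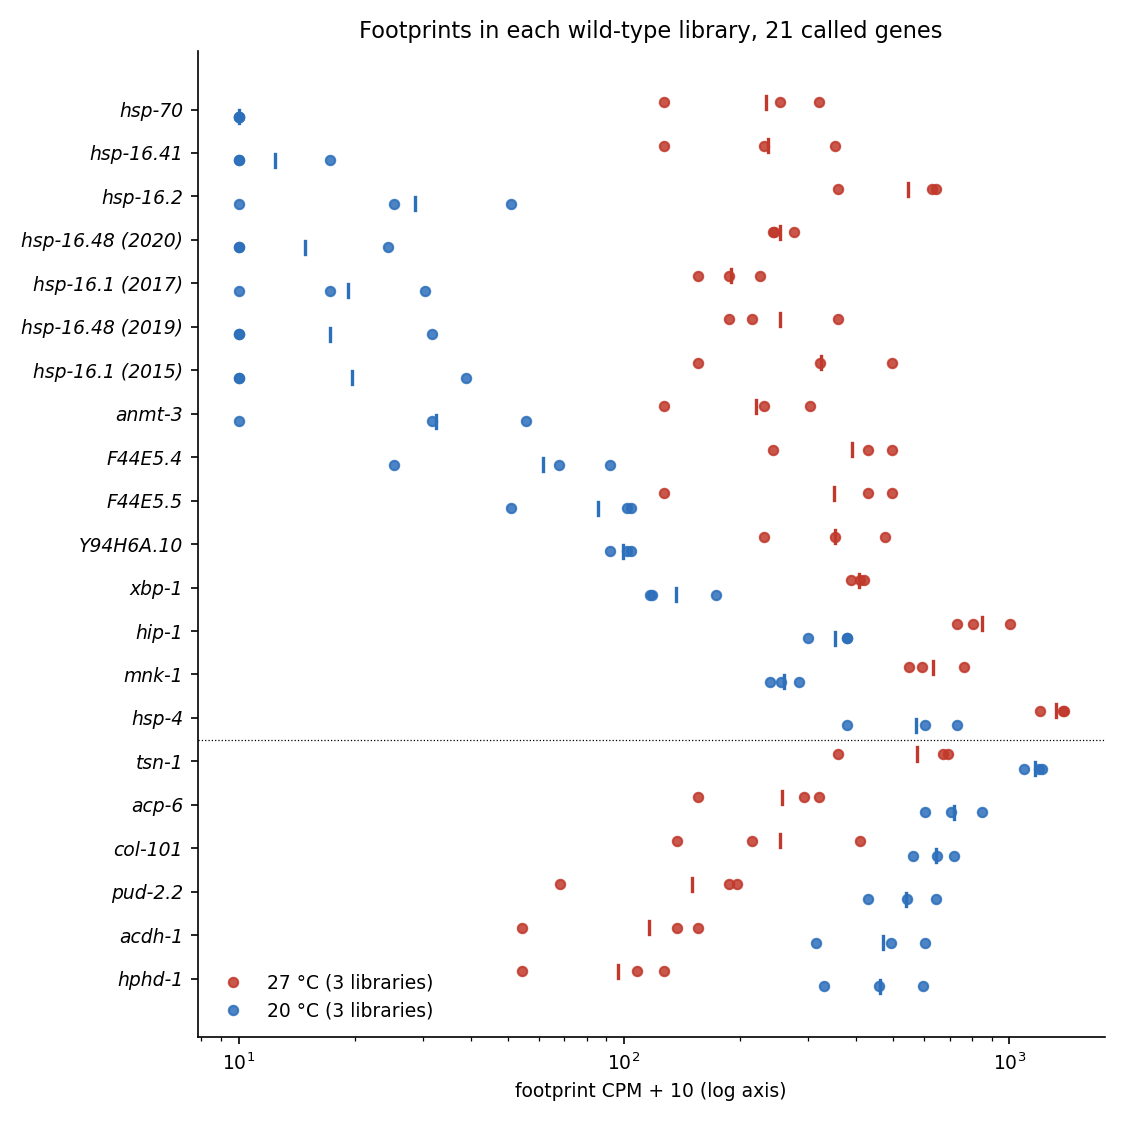
Footprint CPM plus 10 on a log axis for the 21 called genes, with 1 point per library (27 °C above 20 °C in each row) and short bars at the group means; the number in brackets is the end of the gene identifier for genes with a second copy. In each gene the libraries at 27 °C lie on one side of those at 20 °C, and the hsp-16 genes and hsp-70 are at or near 0 in the libraries at 20 °C.

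HSP70 proteins bind and release unfolded chains with ATP, and the cytosol holds both constitutive and heat-inducible members. The inducible hsp-70 (chromosome I) had 25, 4 and 7 footprints at 27 °C and none in any library at 20 °C. Against the limit of 3 footprints over the 20 °C group its level was at least 19.4-fold higher at 27 °C (adjusted p = 0.0002, edgeR). The lower end of the 95% exact counting interval, as used for the other pooled ratios, was 14.97-fold, and the fitted log2 fold change of 7.48 (SE 1.11) is no bound because it depends on how zeros are handled. The divergent pair F44E5.4 and F44E5.5 on chromosome II also encodes HSP70 proteins, with coding sequences that share every stretch of footprint length with another gene. F44E5.4 had 421, 234 and 487 footprint CPM at 27 °C, against 81.9, 57.9 and 15.3 CPM at 20 °C (log2 fold change 2.87, SE 0.53, adjusted p = 0.0014, edgeR). F44E5.5 had 421, 117 and 487 footprint CPM at 27 °C, against 41, 94.0 and 91.6 CPM at 20 °C, a gap that narrowed to 117 against 94.0 between the nearest libraries (2.08, SE 0.49, adjusted p = 0.018, edgeR). Its call was lost without 27 °C replicate 1 (1.72) or 3 (1.93) and without 20 °C replicate 2 (2.31) or 3 (2.14). Summed, the pair was higher at 27 °C by a ratio of 5.70 (95% exact counting interval 3.87 to 8.61).

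The constitutive members of the cytosolic HSP70 list were not called. The gene hsp-1, the main constitutive HSP70, had 8542, 8526 and 9262 footprint CPM at 27 °C, against 4977, 5310 and 6182 CPM at 20 °C. The groups did not overlap, and the log2 fold change of 0.67 (SE 0.20) had an adjusted p of 0.13 in edgeR. DESeq2 called the gene at 0.69. hsp-110, an exchange factor for HSP70, stood at 0.37 (SE 0.24, adjusted p = 0.67, edgeR). All 5 genes of the list had estimates above 0 and 3 were called higher. The median was 2.08 whether hsp-70 stood at its fitted value or at its bound. With the 6 wild-type libraries alone, where hsp-70 and F44E5.5 fell below the filter, it was 0.70. hsp-1 carried most of the list's footprints, and the list as a whole took 1.06%, 1.01% and 1.14% of footprints at 27 °C and 0.578%, 0.619% and 0.702% at 20 °C, with no overlap.

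Partners of HSP70 had 1 call. Of 31 J-domain and BAG co-chaperones, which hand clients to HSP70 or release them, 9 could be tested and none was called, with 7 estimates above 0 and a median of 0.49. The called partner was hip-1 (chromosome III), the homologue of the Hsc70-interacting protein, which was outside the gene lists and was named after its values were seen. It had 724, 993 and 798 footprint CPM at 27 °C, against 369, 369 and 290 CPM at 20 °C. Every library at 27 °C was above every library at 20 °C, and the log2 fold change was 1.26 (SE 0.29, adjusted p = 0.017, edgeR). The call was lost without 27 °C replicate 2 (1.11) and without 20 °C replicate 2 (1.34) or 3 (1.15).

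HSP90 and its co-chaperones, which complete the folding of kinases and receptors, had estimates above 0 without a call in edgeR's test as described. hsp-90 itself was among the most translated genes, with 11840, 11504 and 17328 footprint CPM at 27 °C, against 6267, 8984 and 9525 CPM at 20 °C. The groups did not overlap, and the log2 fold change of 0.71 (SE 0.22) had an adjusted p of 0.15 in edgeR. The largest estimate of the list belonged to ahsa-1, the activator of the HSP90 ATPase, with 401, 204 and 399 footprint CPM at 27 °C, against 61.4, 137 and 198 CPM at 20 °C (1.32, SE 0.37, adjusted p = 0.083, edgeR). The adaptor sti-1 stood at 0.78 (SE 0.27), the immunophilin fkb-6 at 0.73 (SE 0.25), the p23 homologue daf-41 at 0.71 (SE 0.24), the myosin chaperone unc-45 at 0.53 (SE 0.33) and the kinase adaptor cdc-37 at 0.38 (SE 0.26). All 7 tested members had estimates above 0, with a median of 0.71. In 5 of the 7 every library at 27 °C was above every library at 20 °C, against 6.83% of all genes tested. Under other settings ahsa-1 was called with an offset for coding length and GC content (1.40, adjusted p = 0.043, edgeR), and hsp-90 when a replicate block was added to that offset (0.72, adjusted p = 0.042, edgeR). Together the list took 2.07%, 1.88% and 2.58% of footprints at 27 °C, against 1.06%, 1.44% and 1.48% at 20 °C.

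In the ER, footprints rose on hsp-4 and xbp-1. hsp-4 (chrII:7350112-7352645), a BiP protein of the ER lumen, had 122, 47 and 31 footprints at 27 °C and 18, 100 and 39 at 20 °C, which is 1194, 1372 and 1374 CPM at 27 °C, against 369, 723 and 595 CPM at 20 °C. The libraries at 27 °C were close to each other and all above those at 20 °C (log2 fold change 1.15, SE 0.25, adjusted p = 0.010, edgeR). Without 27 °C replicate 2 the estimate was 1.10 and no longer called. xbp-1 (chromosome III), whose mRNA is spliced by IRE-1 during ER stress, had 411, 380 and 399 footprint CPM at 27 °C, against 164, 108 and 107 CPM at 20 °C (1.71, SE 0.41, adjusted p = 0.023, edgeR). The call of xbp-1 stood without 20 °C replicate 1 and was lost without any one of the other 5 libraries (1.59 to 1.74). Counts per gene do not separate the spliced from the unspliced form. xbp-1 was the only one of 14 stress regulators on the list with enough footprints for a test, and hsf-1 itself stayed below the filter, with 68.5, 58.4 and 88.6 CPM at 27 °C, against 61.4, 79.6 and 122 CPM at 20 °C.

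The other ER chaperones and folding enzymes moved less. All 11 tested members had estimates above 0 (0.01 to 1.15), hsp-4 was the sole call, and the median was 0.38. The second BiP gene, hsp-3, overlapped between groups at 0.38 (SE 0.22). The calcium-binding chaperone calreticulin (crt-1) had 6713, 5956 and 6869 footprint CPM at 27 °C, against 4321, 4297 and 4183 CPM at 20 °C (0.61, SE 0.20, adjusted p = 0.18, edgeR). The list's share of footprints was 2.30%, 1.92% and 1.85% at 27 °C, against 1.48%, 1.42% and 1.49% at 20 °C, with no overlap. The 3 tested mitochondrial chaperones and proteases all had estimates above 0 and no call, with hsp-6 (the mitochondrial HSP70) at 0.70 (SE 0.23), hsp-60 at 0.17 (SE 0.21) and Y22D7AL.10 at 0.95 (SE 0.50). Their list took 0.381%, 0.367% and 0.365% of footprints at 27 °C, against 0.292%, 0.290% and 0.301% at 20 °C, with no overlap. The CCT chaperonin, which folds actin and tubulin, had a median of 0.22 over 8 tested genes, with 7 estimates above 0 and no call. In 3 of the 8 every library at 27 °C was above every library at 20 °C, against 6.83% of all genes tested. The list's share of footprints overlapped between groups.

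**Figure D3:**
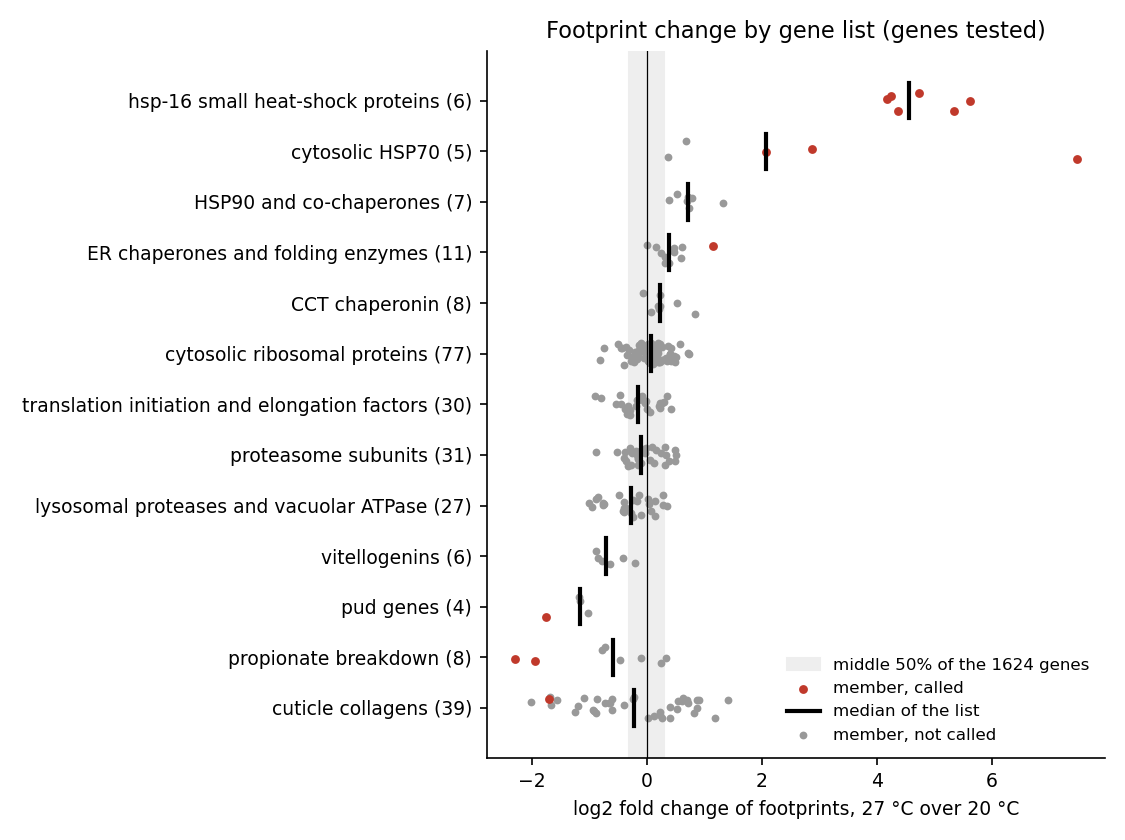
Log2 fold change of footprints, 27 °C over 20 °C, for the tested members of 13 gene lists (number tested in brackets), with list medians as black bars and the middle 50% of all 1624 genes in grey. Members of the 4 chaperone lists at the top lie above 0, those of the vitellogenins and pud genes below it, and the ribosomal proteins and translation factors are centred close to 0.

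A further 3 higher genes lie outside the chaperone lists. anmt-3 (chromosome V), of the amine N-methyltransferase family, had 30, 4 and 5 footprints at 27 °C and 0, 3 and 3 at 20 °C, a pooled ratio of 10.5 (95% exact counting interval 4.41 to 30.3, adjusted p = 0.0099, edgeR). The call was lost without 27 °C replicate 1 (2.68 on the log2 scale) or 20 °C replicate 2 (3.07). Y94H6A.10 (chromosome IV) had 342, 467 and 222 footprint CPM at 27 °C, against 81.9, 94.0 and 91.6 CPM at 20 °C (log2 fold change 1.94, SE 0.42, adjusted p = 0.0099, edgeR), a call lost without 27 °C replicate 1 (1.96) or 2 (1.75) or 20 °C replicate 2 (1.996). mnk-1 (chromosome II), which encodes a kinase whose mammalian homologues phosphorylate the cap-binding factor eIF4E, had 538, 584 and 753 footprint CPM at 27 °C, against 246, 275 and 229 CPM at 20 °C. Its groups were well apart, with an estimate of 1.24 (SE 0.32, adjusted p = 0.042, edgeR), and it was named after its values were seen. The call of mnk-1 was lost whichever wild-type library was left out, and also in DESeq2, while its estimate stayed between 1.14 and 1.35.

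Among the lower genes, hphd-1 and acdh-1 had the largest falls. Both belong to the propionate shunt, the route by which worms short of vitamin B12 break down propionate: acdh-1 is the acyl-CoA dehydrogenase of its first step and hphd-1 the hydroxyacid-oxoacid transhydrogenase of a later step. hphd-1 (chrII:12994354-12996571) had 10, 4 and 1 footprints at 27 °C, against 22, 81 and 21 at 20 °C, or 97.9, 117 and 44.3 CPM at 27 °C, against 451, 586 and 321 CPM at 20 °C. Every library at 27 °C was below every library at 20 °C, and the log2 fold change was -2.30 (SE 0.40, adjusted p = 0.00071, edgeR). acdh-1 (chromosome I) had 127, 146 and 44.3 footprint CPM at 27 °C, against 594, 485 and 305 CPM at 20 °C (-1.95, SE 0.38, adjusted p = 0.0034, edgeR). The shunt enzymes ech-6 (-0.78, SE 0.30) and alh-8 (-0.73, SE 0.32) were not called.

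The vitamin B12-dependent side of the same list gave other values. The carboxylase subunits pcca-1 and pccb-1 stood at -0.10 (SE 0.27) and -0.46 (SE 0.31), the mutase mmcm-1 at 0.25 (SE 0.34) and methionine synthase metr-1 at 0.34 (SE 0.45). None was called, and the division of the list into shunt and B12-dependent enzymes was made after the values were seen. Over the 8 tested genes of the list, 2 were called lower, 2 had estimates above 0 and the median was -0.59. The list's share of footprints was 0.279%, 0.217% and 0.255% at 27 °C, against 0.401%, 0.384% and 0.335% at 20 °C.

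The pud genes, named as proteins up-regulated in a daf-2 gain-of-function mutant, lay below 0 throughout, with 1 call. One copy of pud-2.2 (WBGene00017490, chromosome V) had 186, 58.4 and 177 footprint CPM at 27 °C, against 635, 420 and 534 CPM at 20 °C (log2 fold change -1.75, SE 0.39, adjusted p = 0.010, edgeR). Its second copy, WBGene00017500, has an identical coding sequence and stood at -1.16 (SE 0.38, adjusted p = 0.18, edgeR), so the difference between the copies carries no weight (the call of the first was lost without 27 °C replicate 2, at -1.48), and their summed ratio was 0.420 (95% exact counting interval 0.318 to 0.550). pud-1.1 stood at -1.03 (SE 0.39) and pud-1.2 at -1.17 (SE 0.39), neither called. All 4 tested pud genes were lower at 27 °C without overlap, against 7.20% of all genes tested, but the pud-2.2 copies do not count as separate genes. The list took 0.122%, 0.0587% and 0.0747% of footprints at 27 °C and 0.294%, 0.165% and 0.286% at 20 °C.

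The remaining lower genes were a collagen, a phosphatase and a nuclease. col-101 (chromosome IV), a cuticle collagen, had 127, 204 and 399 footprint CPM at 27 °C, against 553, 709 and 641 CPM at 20 °C (log2 fold change -1.70, SE 0.38, adjusted p = 0.013, edgeR), and its call was lost without 27 °C replicate 1 (-1.18) or 2 (-1.72) or 20 °C replicate 2 (-1.60). Collagens as a list were spread widely, with 39 tested, 1 called, estimates of -2.01 to 1.41, 19 of them above 0 and a median of -0.23. acp-6 (chromosome IV), of the acid phosphatase family, had 284, 146 and 310 footprint CPM at 27 °C, against 594, 694 and 840 CPM at 20 °C (-1.49, SE 0.32, adjusted p = 0.0083, edgeR), lost without 27 °C replicate 2 (-1.29). tsn-1 (chromosome II), the Tudor staphylococcal nuclease, had 685, 350 and 665 footprint CPM at 27 °C, against 1208, 1186 and 1084 CPM at 20 °C (-0.99, SE 0.26, adjusted p = 0.045, edgeR). tsn-1 was the weakest call, and leaving out any 1 of the 6 wild-type libraries ended it (-1.27 to -0.78).

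In the lists that remain, no member was called in edgeR's test as described. With a median SE of 0.38 over all genes, a moderate change could go uncalled. The 77 tested cytosolic ribosomal proteins had a median log2 fold change of 0.06, with 50 estimates above 0, and 30 translation initiation and elongation factors had a median of -0.15, with 8 above 0. No member of either list was called. The translation factors took 2.75%, 2.90% and 2.71% of footprints at 27 °C, against 3.12%, 2.95% and 2.91% at 20 °C, with no overlap. The shares of the ribosomal proteins overlapped. Proteasome subunits (31 tested, -0.11), aminoacyl-tRNA synthetases (19 tested, -0.11), histones (43 tested, -0.01), sarcomere genes of muscle (32 tested, 0.08) and enzymes of oxidative phosphorylation (31 tested, 0.19) had no call either. Lysosomal proteases and vacuolar ATPase subunits (27 tested, 8 above 0) had a median of -0.28 without a call, and the antimicrobial and other immune effectors (21 tested, 5 above 0) one of -0.31. Nucleolar ribosome biogenesis genes (8 tested, 3 above 0) had a median of -0.11. They took 0.400%, 0.326% and 0.404% of footprints at 27 °C, against 0.467%, 0.471% and 0.421% at 20 °C, with no overlap. The 4 tested fatty acid desaturases were all above 0 (median 0.69), and 3 of them were called higher in RNA. Of all 1599 genes tested in both assays, 25 were called higher in RNA. Other lists had RNA calls too, among them 3 of 7 HSP90 members higher, and 4 of 27 lysosomal and 2 of 8 nucleolar members lower. The footprint median of the desaturases was 0.17 without 27 °C replicate 1. Some of these medians moved with 1 library. The immune median was -0.12 without 20 °C replicate 1 and -0.17 without 27 °C replicate 3, that of the lysosomal list -0.18 without 20 °C replicate 2, those of muscle and oxidative phosphorylation 0.31 and 0.32 without 20 °C replicate 1, and that of the synthetases ran from -0.17 (without 20 °C replicate 1) to -0.05 (without 27 °C replicate 3).

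The yolk proteins, the vitellogenins, which the intestine makes for the oocytes, took a share of footprints that no other list but the ribosomal proteins came near. vit-6 alone had 17251, 25023 and 23133 footprint CPM at 27 °C, against 19046, 39293 and 28805 CPM at 20 °C, and the groups overlapped (log2 fold change -0.42, SE 0.25). All 6 vitellogenins had estimates below 0, with a median of -0.72, and the lowest was vit-4 at -0.88 (SE 0.24, adjusted p = 0.081, edgeR), followed by vit-3 at -0.84 (SE 0.26, adjusted p = 0.13, edgeR). None was called in edgeR's test as described, but DESeq2 called vit-4 (-0.86, adjusted p = 0.044), and both vit-3 and vit-4 were called without 20 °C replicate 1 (-1.07 and -1.08) and with no filter on low counts (-1.05 and -1.08). Of the 28-base stretches of the coding sequence, 14.6% in vit-3, 11.5% in vit-4 and 33.9% in vit-5 are unique to the gene. The split of footprints among these genes is uncertain, so vit-3 and vit-4 do not count as separate results. The summed share of all 6 vitellogenins was 4.09%, 6.51% and 5.90% at 27 °C and 5.56%, 9.99% and 7.94% at 20 °C. Replicate 1 was the lowest of its group at both temperatures. The groups overlapped, while under each replicate number the library at 27 °C had the lower share. The elongation factor eef-1A.1, another abundant gene, was level (-0.03, SE 0.20). lea-1, a protein known from desiccation tolerance, had 9178, 9139 and 8908 footprint CPM at 27 °C, against 4854, 4080 and 7052 CPM at 20 °C (0.77, SE 0.22, adjusted p = 0.092, edgeR), and was called in DESeq2 (0.79, adjusted p = 0.025) and without 20 °C replicate 3 (1.03).

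Markers of cell types were read for the whole animal. Oocyte, eggshell and germ granule genes took 2.09%, 2.57% and 2.55% of footprints at 27 °C and 1.90%, 2.82% and 2.76% at 20 °C, and muscle genes 2.55%, 2.18% and 1.93% at 27 °C and 3.02%, 1.69% and 1.94% at 20 °C. Sperm genes were nearly absent, with 61 of 66 at 0 in all 6 libraries. Low depth and unique alignment can leave genes at 0, and their part in this was not tested. Oocyte genes had a median log2 fold change of -0.36 in footprints and 0.05 in RNA over 29 tested genes, none called. The footprint median was -0.11 without 27 °C replicate 1 and -0.16 without 20 °C replicate 2. The part of such shifts in the results was not tested.

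**Figure D4:**
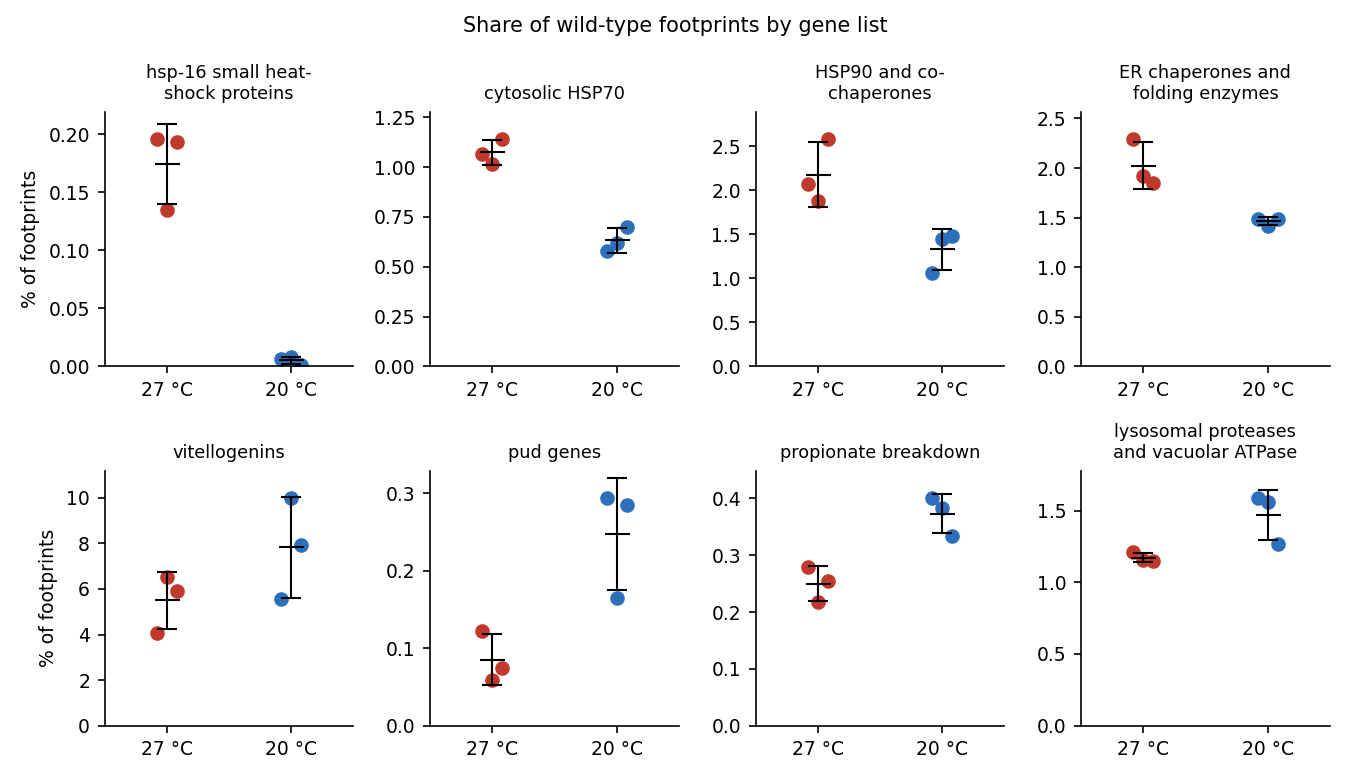
Share of all footprints (percent, linear axes from 0) taken by 8 gene lists in each library, 27 °C left of 20 °C, with mean and SD in black. The 4 chaperone lists are higher in every library at 27 °C, the pud, propionate and lysosomal lists are lower, and the vitellogenins overlap.

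Whether footprints changed with the mRNA was read from the input RNA of the same lysates. Over the 10815 genes tested in RNA, edgeR called 102 (0.943%), or 459 (4.24%) when replicate numbers, by which the RNA libraries pair, formed a block. Leaving out 1 library gave 49 RNA calls (without 27 °C replicate 3), 57 (without 27 °C replicate 2) or up to 245 (without 20 °C replicate 1). Of the genes tested in RNA 1599 could also be tested in footprints, and there RNA had 49 calls (3.06%), or 180 (11.3%) with the block. All 49 had a footprint estimate in the same direction, as did 153 of the 180. The share with the same direction over all 1599 genes was not counted, so these counts have no reference. Of the 21 genes called in footprints 19 could be tested in RNA, and 13 of these were called there in the same direction (18 with the block). The correlation of both changes across the 1599 genes was 0.342 (Spearman, across genes, which are not independent replicates, and from the same lysates).

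For the called genes tested in both assays, the size of the change could differ between footprints and RNA. In RNA, hsp-16.2 had 178, 105 and 140 CPM at 27 °C, against 0.699, 0.740 and 0.924 CPM at 20 °C, a log2 fold change of 7.39 (adjusted p = 1.1e-06, edgeR) beside 5.35 in footprints. Both sizes rest on few counts at 20 °C (2, 2 and 3 in RNA, and 2, 0 and 1 footprints), so their difference is poorly fixed. hsp-70 RNA stood at 120, 66.9 and 102 CPM at 27 °C, against 2.44, 4.44 and 4.01 CPM at 20 °C (4.72, adjusted p = 4.3e-05, edgeR), beside the fitted 7.48 in footprints that is no bound. The constitutive hsp-1 stood at 0.18 in RNA and 0.67 in footprints. For hsp-4 the RNA change was 0.73 (adjusted p = 0.0074, edgeR) beside 1.15 in footprints, for acdh-1 it was -2.37 beside -1.95, and for hphd-1 -2.22 beside -2.30. F44E5.4, F44E5.5, xbp-1, tsn-1 and col-101 were called in RNA with the block alone (adjusted p = 0.014, 0.0089, 0.040, 0.0067 and 4.3e-05, edgeR). Without it their adjusted p was 0.33, 0.15, 0.53, 0.11 and 0.055 in edgeR.

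Of the 19 called genes tested in RNA, mnk-1 alone had an RNA estimate of the opposite sign. Its RNA had 501, 412 and 469 CPM at 27 °C, against 538, 435 and 484 CPM at 20 °C, so the groups overlapped (log2 fold change -0.08, adjusted p = 0.90, edgeR), while its footprints were higher at 27 °C in every library. Translation efficiency, the change in footprints beyond that in RNA, was tested as an interaction over both assays. In edgeR 0 of 1599 genes were called, 90 had an unadjusted p under 0.05, and the smallest adjusted p was 0.37, that of mnk-1 (1.27, unadjusted p = 0.00023, edgeR). DESeq2 called 1 gene, which was mnk-1. Other called genes had interaction estimates as large with wider errors, among them xbp-1 (1.31, SE 0.49), anmt-3 (1.45, SE 0.79) and hsp-16.2 (-1.86, SE 1.121). The genes with the next lowest p, ran-2 (-1.31), fln-1 (0.76) and usp-14 (-0.97), were called in neither tool. They were named after their values were seen.

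**Figure D5:**
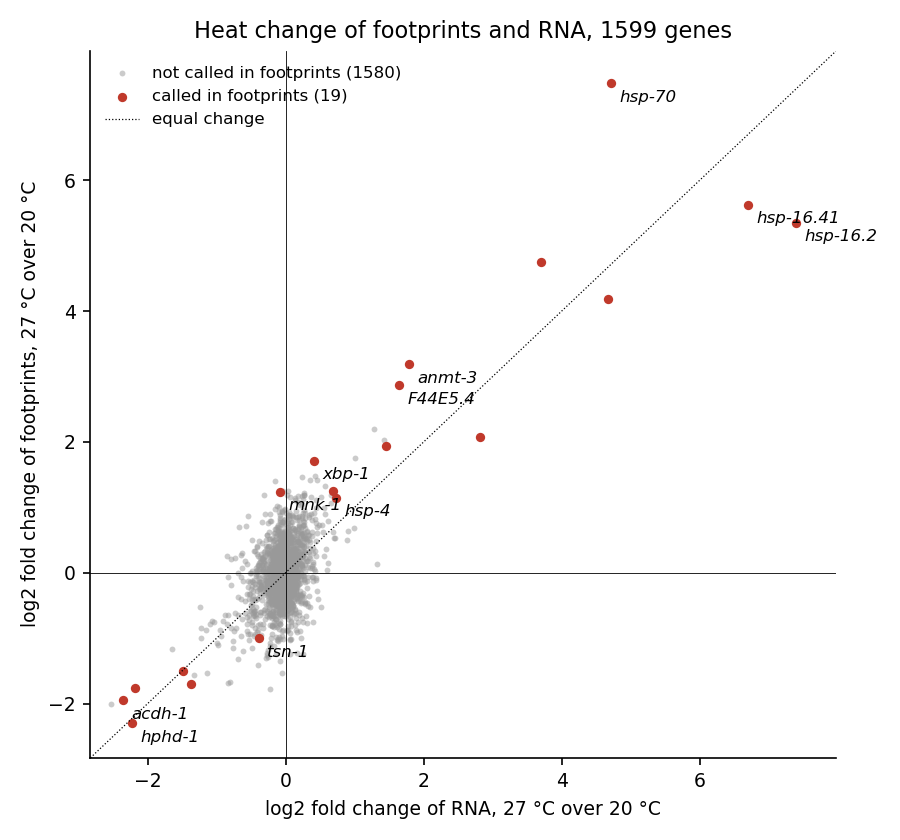
Log2 fold change at 27 °C over 20 °C of RNA (horizontal axis) and of footprints (vertical axis) for the 1599 genes tested in both, with the 19 footprint-called genes in red and a dotted line of equal change. The red genes have the same sign on both axes apart from mnk-1, at -0.08 in RNA and 1.24 in footprints, and several others, such as xbp-1 at 0.41 and 1.71, also lie well off the line.

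The same contrast in noNSUN animals used other libraries, but the filter, the scaling and the estimate of spread were shared with the wild type. There 54 of 1624 genes were called (3.33%), 17 higher (1.05%) and 37 lower (2.28%). All 21 genes called in wild type had an estimate in the same direction in noNSUN (the share over all 1624 genes was not counted). Of these, 15 were called there too. The 6 called in wild type but not there were xbp-1 (1.71 in wild type, against 1.17 in noNSUN), hip-1 (1.26, against 0.07), mnk-1 (1.24, against 0.14), tsn-1 (-0.99, against -0.35), acp-6 (-1.49, against -0.84) and pud-2.2 (-1.75, against -0.92). The difference between the strains was itself tested, and edgeR called 0 of 1624 genes (83 at an unadjusted p under 0.05, 0 called by DESeq2). For hip-1 it was 1.19, wild type minus noNSUN (unadjusted p = 0.0057, adjusted p = 0.74, edgeR), and for mnk-1 1.10 (unadjusted p = 0.019, adjusted p = 0.81, edgeR). Across genes the changes of the strains had a Spearman correlation of 0.314.

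Length, base composition and position can also be read for the called genes, although the filter acted on counts that were not scaled for length. The higher genes had a median coding length of 849 nt and a median GC content of 41.5%, the lower genes 1212 nt and 45.1%, and all tested genes 1296 nt and 47.5%. All genes in the files had medians of 993 nt and 42.5%. The 6 hsp-16 genes, with 429 to 435 nt and 33.3% to 39.1% GC, weigh on the medians of the higher genes. On chromosome V lay 7 of the 15 higher genes, 6 of them the hsp-16 genes, against 263 of the 1624 genes tested. For 7 of the 21 called genes (hsp-16.1 and hsp-16.48 in 2 copies each, F44E5.4, F44E5.5 and pud-2.2) no stretch of 28 bases of the coding sequence is unique to the gene, although the methods state unique alignment. When genes with identical coding sequences were summed, a step added after the data were seen, 17 of 1608 were called (1.06%), 12 higher (0.746%) and 5 lower (0.311%), and tsn-1 was no longer among them.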

How the data were processed

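Footprints of wild-type animals were counted in 6 libraries and input RNA of the same lysates in another 6. Per the labels and the methods, the authors trimmed reads with Trimmomatic 0.39, removed rRNA with SortMeRNA and aligned with HISAT2 2.1.0 to WBcel235. They kept unique alignments whose lengths were codon-periodic and deposited, per gene, raw counts of those in frame on its longest coding sequence after the first 10 codons. RNA counts came from HTSeq, whose version, strand setting and annotation are not given in the sources used here. The deposited counts were used as they are. The RNA kit marks strand, but whether counting used it is not stated, so overlapping and antisense genes are uncertain in RNA.

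Symbols, coordinates (1-based) and coding sequences came from Ensembl release 115 for WBcel235 (20159 of 20447 gene identifiers matched, 19620 with a symbol), and the genome sequence from RefSeq for the same build. In R 4.3.3, edgeR 4.0.16 was used with TMM scaling, filterByExpr (minimum count 10, minimum total 15), quasi-likelihood fits, two-sided tests and Benjamini-Hochberg adjustment over all genes tested. The 12 footprint libraries of both strains shared 1 fit (and the 12 RNA libraries another), and translation efficiency was the interaction over 24 libraries. The SE was taken from the estimate and the quasi-likelihood F (estimate over root F). CPM values are counts over the TMM-scaled library size. Pooled ratios have exact 95% counting intervals that leave replicate spread out. The script was tested on simulated data.

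Genes named in the text were a fixed list (26 symbols), the 12 largest rises and falls among called genes whose groups did not overlap, the 10 genes with the highest share of footprints at each temperature, up to 3 called members of each of 32 lists, and others stated as named after their values were seen. The members and lists were chosen with earlier results of these data known. Lists are described by counts and medians, with no test. Alternatives were DESeq2 1.42.0, other scalings and filters, an offset for coding length and GC content fitted with mgcv 1.9.3, only the wild-type libraries, a replicate block, leaving out each library, and summed identical coding sequences (added after the data were seen).

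Same-numbered footprint libraries deviated from their group means with correlations of 0.14, -0.04 and 0.10, so the main fit has no block for them. For RNA of the same lysates the correlations were 0.85, 0.41 and 0.72, and blocked values are given beside the unblocked ones where they change a call. No libraries held identical counts.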

Additional observations from a re-analysis of the deposited data

Results flagged for a closer look

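dnj-7 (chromosome X), a J-domain protein of the ER in mammals and the largest estimate among the J-domain genes, was singled out after its values were seen because the strains moved in opposite directions. In wild type it had 176, 204 and 177 footprint CPM at 27 °C, against 123, 65.1 and 76.3 CPM at 20 °C. In noNSUN it had 90.1, 111.6 and 90.7 CPM at 27 °C, against 121, 122 and 114 CPM at 20 °C. Those noNSUN values rest on 15, 45 and 3 footprints at 27 °C and on 11, 7 and 4 at 20 °C. The nearest noNSUN libraries stood at 111.6 and 114 CPM, so the lack of overlap there is fragile. The difference of the heat response, wild type minus noNSUN, was 1.40 on the log2 scale, which was not called (unadjusted p = 0.050, adjusted p = 0.84, edgeR). Such opposite moves without overlap occurred in 6 of 1624 genes, and moves in the same direction without overlap in both strains in 75.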

How the results depend on the processing

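Of the 21 genes called in footprints, hsp-70, the 6 hsp-16 genes, F44E5.4, acdh-1 and hphd-1 were called whichever wild-type library was left out. hsp-4, acp-6 and pud-2.2 were lost without 27 °C replicate 2, and the others in 2 or more of the 6 fits. These fits kept the noNSUN libraries. With the 6 wild-type libraries alone, hsp-70, hsp-16.41, both hsp-16.1 copies, F44E5.5 and anmt-3 fell below the filter and were not tested. The filter on a mean of at least 10 counts also left out hsp-70 and every hsp-16 gene but hsp-16.2. The number of calls ran from 13 to 31 when 1 wild-type library was left out. It was 13 (8 higher and 5 lower) with a filter on a mean of at least 10 counts, where fewer genes were tested. With no filter it was 24, of which 11 were higher and 13 lower, against 15 and 6. A replicate block gave 31 calls (18 higher, 13 lower) that included all 21, with vit-3 and vit-4 lower among the added ones, and with the replicate block and an offset for coding length and GC content 37 (20 higher and 17 lower). The hsp-16 median fell to 3.21 with that offset alone and both hsp-16.48 copies lost their calls; the cause was not tested. DESeq2 called 24 genes in footprints, and other scalings 20. For RNA, 102 calls became 175 in DESeq2, 23 with the 6 wild-type libraries alone (fewer samples), 459 with the replicate block, and 49 to 245 when 1 library was left out, the highest without 20 °C replicate 1. Translation efficiency had 0 calls in edgeR under each setting, replicate block included, and 1 in DESeq2. The difference between strains had 0 to 1 calls when a library was left out (1, cut-2, without wild-type 20 °C replicate 1), and 0 under the other settings. Of 29 lists with at least 3 tested genes, 14 had a median above that of all genes, and 10 to 15 across the alternatives. The collagen median was 0.06 with a mean of at least 10 counts, and the HSP70 median was 0.70 with the 6 wild-type libraries alone. Of the values near 0, eef-1A.1 turned to 0.014 with a mean of at least 10 counts and ran from -0.15 to 0.032 when 1 library was left out, and vit-2 from -0.37 to 0.013. Depth is a limit: most genes had too few footprints to be tested.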
